A study of Mus musculus with 6 samples.

Results

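Polyamine metabolism was represented by 10 genes out of the 48395 symbols in the count tables. Odc1, Amd1, Srm and Sms encode the enzymes of synthesis, Azin1, Oaz1 and Oaz2 encode proteins that control ornithine decarboxylase, and Sat1, Smox and Paox encode the enzymes of breakdown. The rows were taken by symbol, and Odc1 and Srm were already known to be lower under the Hmga2 label when the list was made. Differences between the groups are therefore given for the 10 genes as descriptions, with their errors and without a test. All 10 genes passed the filter on low counts.

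RNA was sequenced from sorted LSK cells, the lineage-negative fraction with Sca-1 and c-Kit that contains blood stem cells and early progenitors. In both groups the marrow donors were 5-fluorouracil-primed mice with Mx1Cre and a heterozygous Jak2V617F allele (Jak2VF/+, strain C57BL/6), the cells were transduced with lentivirus by spin infection, and C57BL/6 recipients were lethally irradiated before transplantation. The virus carried no insert in the 3 libraries labelled vector and Hmga2 in the 3 labelled Hmga2, and marrow was harvested 32 weeks after transplantation. Mx1Cre is driven by an interferon-inducible promoter that acts in many cell types, and both groups carried the Jak2 allele, so neither is a wild-type control. The labels call the libraries of a group biological replicates. The age of the mice, whether a library came from 1 recipient, and whether the sort separated transduced from other cells are details not given in the sources used here, so p-values measure the spread between these libraries.

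Total counts ranged from 24818011 to 35471806 per library. Hmga2 itself (chromosome 10, 120361275 to 120476469 on mm10) was at 5.97, 5.02 and 7.04 CPM (counts relative to the TMM-scaled library size) in vector replicates 1, 2 and 3 and at 2.64, 6.62 and 5.92 CPM in the same order of the libraries labelled Hmga2. Its counts thus give no sign of the added gene under the Hmga2 label, and the sources used here do not say whether the viral sequence would be counted under this symbol. The log2 fold change was -0.25 (standard error 0.35, edgeR adjusted p = 0.934), so directions refer to the library labels alone. Jak2 was at 64.2 ± 7.84 CPM with vector and 77.3 ± 8.96 CPM in the other group (SD, n = 3 each). The LSK marker Kit was at 248 to 354 CPM under the vector label, and 345 to 375 CPM under the Hmga2 label, and Ly6a, which encodes Sca-1, at 19.3 to 59.1 and 32.2 to 45.5 CPM. Over the whole list of 9 LSK and stem cell markers, 7 had a positive and 2 a negative log2 fold change, and the summed level was 1440, 1220 and 1370 CPM with vector and 1610, 1570 and 1590 CPM in the other group. These sums did not overlap, but they rest largely on Cd34 and Kit, whose groups each overlapped. Only Meis1, 1 of the 9, was higher without overlap, beside 5.28% of all tested genes. Their part in the levels of the polyamine genes was not tested.

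Polyamines (putrescine, spermidine and spermine) are small positively charged amines that bind RNA and DNA, and growing cells need them for translation. Ornithine decarboxylase makes putrescine from ornithine, and S-adenosylmethionine decarboxylase supplies the aminopropyl groups with which spermidine synthase and spermine synthase extend it. Antizyme binds ornithine decarboxylase and delivers it to the proteasome, antizyme inhibitor releases it, and acetylation and oxidation return spermine and spermidine towards putrescine. Odc1 and Srm are known targets of Myc, and spermidine is the substrate from which the translation factor eIF5A receives its hypusine. Much of the control of Odc1, Amd1, Sat1 and the antizymes is known to lie in translation and protein turnover, which RNA counts do not measure.

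Antizyme is made only when ribosomes shift frame on its transcript, and the site is shown because it also shows how closely Oaz1 and its processed pseudogene resemble each other. In the following GENCODE M21 transcript sequences, written from 5′ to 3′, capitals mark the serine codon and the bases that follow it. In Oaz1-205 these end in the stop codon of the first frame. Oaz1-202, 1 of 3 Oaz1 transcripts modelled in this way, is annotated with exons that end at 80828294 and resume at 80828296 on chromosome 10, so that 1 base is left out and the second frame is joined to the first.
Oaz1-205: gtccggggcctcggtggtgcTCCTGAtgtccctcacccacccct
Oaz1-202: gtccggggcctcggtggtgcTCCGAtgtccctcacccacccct
Oaz1-ps-201: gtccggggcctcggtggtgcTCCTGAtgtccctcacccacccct
Oaz1-205 matched the pseudogene at 513 of 513 aligned bases. Reads from this stretch cannot be assigned to either gene by sequence.

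Amd1 also has a near-identical copy, Amd2, on the same chromosome. Their main transcripts matched at 3188 of 3198 aligned bases, with 10 mismatches. The RefSeq windows around both starts (GRCm38.p6, minus strand) are shown because the match begins at the annotated start of Amd2 and at base 3 of Amd1. From the first capital on, they are identical to the end of the Amd1 window, a run of 48 bases that the window cuts off. Of these, 25 are shown.
Amd1, chr10:40302162-40302211: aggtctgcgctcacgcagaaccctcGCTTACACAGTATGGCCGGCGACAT
Amd2, chr10:35711867-35711916: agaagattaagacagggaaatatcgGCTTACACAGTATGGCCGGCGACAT

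Promoter windows from RefSeq (GRCm38.p6) were found for 8 of the 10 genes, all but Srm and Azin1. The 250 bases upstream of the start are shown for the other 3 synthesis genes, since they differed in how far they were lower. Capitals mark matches on either strand to the E-box CACGTG, the variant CACGCG, the GC box GGGCGG and TATAA, which do not contain one another. The Odc1 window held 2 matches to CACGCG and 4 to GGGCGG. The Amd1 window held 1 match to GGGCGG and 2 overlapping matches to TATAA, 1 on each strand. The outer of the 2 Sms windows, shown here, held 1 match to CACGTG, and the inner one 1 to CACGCG and 4 to GGGCGG. Of all 32851 upstream windows of this length, 6.02% held CACGTG, 7.62% CACGCG, 32.7% GGGCGG and 22.8% TATAA.
Odc1, chr12:17544623-17544872, plus strand: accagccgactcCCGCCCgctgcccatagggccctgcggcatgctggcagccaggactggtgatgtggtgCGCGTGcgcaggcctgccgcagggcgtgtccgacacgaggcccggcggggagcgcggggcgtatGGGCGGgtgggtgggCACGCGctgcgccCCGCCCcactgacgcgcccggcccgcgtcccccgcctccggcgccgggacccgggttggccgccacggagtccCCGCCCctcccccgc
Amd1, chr10:40302189-40302438, minus strand: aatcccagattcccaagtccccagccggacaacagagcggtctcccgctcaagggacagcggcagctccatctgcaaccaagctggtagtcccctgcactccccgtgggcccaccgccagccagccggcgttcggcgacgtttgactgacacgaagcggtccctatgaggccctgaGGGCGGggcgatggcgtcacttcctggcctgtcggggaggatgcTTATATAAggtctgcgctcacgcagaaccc
Sms, chrX:157492288-157492537, minus strand: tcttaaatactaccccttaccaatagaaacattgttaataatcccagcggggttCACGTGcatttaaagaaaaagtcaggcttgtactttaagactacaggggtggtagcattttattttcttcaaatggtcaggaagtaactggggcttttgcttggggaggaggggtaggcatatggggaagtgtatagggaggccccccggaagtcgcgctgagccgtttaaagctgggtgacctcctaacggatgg

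The first enzyme and the spermidine-forming enzyme of synthesis were lower in the libraries labelled Hmga2, while the other 2 synthesis genes had overlapping groups. Odc1 (chromosome 12, 17544794 to 17551505, plus strand), which encodes ornithine decarboxylase, was at 289, 273 and 293 CPM under the vector label, and 221, 209 and 232 CPM under the Hmga2 label. Each of the latter lay below each of the former, and the gap between the groups exceeded the SD within either of them. The means were 285 ± 10.5 and 221 ± 11.8 CPM (SD, n = 3 each). The fitted log2 fold change (Hmga2 label minus vector label) came to -0.37, a ratio of 0.775, and its 95% interval ran from -0.55 to -0.19 (standard error 0.08). Each of these values rested on 6415 to 9161 reads, so counting error was at most 1.25%, against coefficients of variation between replicates of 3.68% and 5.36%.

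Srm (chromosome 4, 148591503 to 148594993, plus strand), spermidine synthase, was at 228, 291 and 314 CPM under the vector label, and 215, 192 and 220 CPM under the Hmga2 label. The groups did not overlap, but vector replicate 1 stood only just above the highest library labelled Hmga2, closer to it than to the other vector libraries. The means were 277 ± 44.6 and 209 ± 14.8 CPM (SD, n = 3 each), and the log2 fold change came to -0.41 (standard error 0.13, interval -0.71 to -0.10). Without vector replicate 1 it was -0.53 and without vector replicate 3 it was -0.30. Its ratio, 0.754, was close to that of Odc1, and its interval about the ratio, 0.611 to 0.932, contained the whole interval of Odc1, 0.685 to 0.876.

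Amd1 (chromosome 10, 40287458 to 40302186, minus strand) encodes S-adenosylmethionine decarboxylase. It was at 130, 151 and 133 CPM under the vector label, and 138, 98.3 and 132 CPM under the Hmga2 label. Replicate 2 labelled Hmga2 stood below all others, and the other 2 lay within the vector range. The log2 fold change of -0.16 had an interval from -0.49 to 0.16. It moved to -0.03 when Hmga2 replicate 2 was left out and to -0.41 when Y-linked RNA was a covariate. The last value rests largely on Hmga2 replicate 2, the only library of its label as low in Y-linked RNA as the vector libraries. Amd2 followed the same libraries, at 75.8, 86.2 and 74.1 CPM, then 77.6, 55.5 and 73.9 CPM, with a ratio of Amd1 to Amd2 counts between 1.71 and 1.80 in the 6 libraries. Their sum, which does not depend on how reads were divided between them, was 216 ± 17.6 CPM under the vector label and 192 ± 33.4 CPM under the Hmga2 label. Pseudogenes named Amd-ps1, Amd-ps3 and Amd-ps4 added 38.1 ± 3.17 and 38.0 ± 10.5 CPM, nearly all of it from Amd-ps3 and Amd-ps4. Amd-ps5 had 0 reads in each library.

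Sms (chromosome X, 157443855 to 157492287, minus strand), which makes spermine from spermidine, was at 89.4, 94.8 and 96.1 CPM under the vector label, and 96.6, 80.3 and 90.9 CPM under the Hmga2 label. The highest and the lowest of the 6 values both carried the Hmga2 label. The log2 fold change of -0.07 had an interval from -0.27 to 0.14, which bounds a fall in the ratio at 0.827. The log2 fold changes of all 4 synthesis genes were thus negative (median -0.27), but Sms was at 0.00 without Hmga2 replicate 2.

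**Figure D1:**
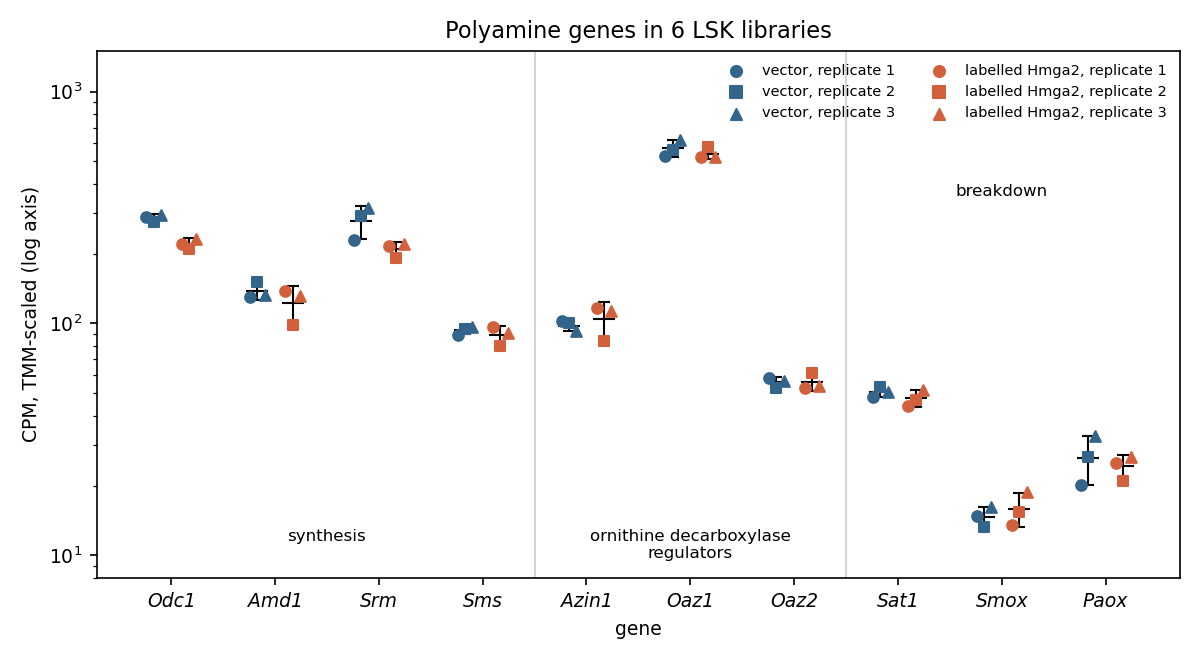
Level of each polyamine gene in TMM-scaled CPM on a log axis, by library; symbols stand for replicates, bars for the mean ± SD of 3 libraries. Odc1 and Srm are separated by label, Odc1 by a wider gap than Srm, and the other 8 genes overlap.

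The genes that control ornithine decarboxylase overlapped between the groups. Oaz1 (chromosome 10, 80826656 to 80829290, plus strand), the main antizyme, was at 530, 559 and 620 CPM under the vector label, and 522, 575 and 524 CPM under the Hmga2 label. Its log2 fold change was -0.08, with an interval from -0.30 to 0.15. The pseudogene Oaz1-ps was at 60.8 ± 7.08 and 57.8 ± 3.36 CPM, and the ratio of Oaz1 to Oaz1-ps counts lay between 9.03 and 9.64 in the 6 libraries. Oaz2 (chromosome 9, 65668001 to 65690300, plus strand), a second antizyme, was at 58.0, 52.5 and 56.6 CPM, then 52.7, 61.1 and 53.7 CPM. Its log2 fold change of 0.00 had an interval from -0.22 to 0.22, which leaves room for a ratio between 0.861 and 1.17.

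Azin1 (chromosome 15, 38487427 to 38519266, minus strand) encodes antizyme inhibitor, a relative of ornithine decarboxylase without its activity. It was at 102, 100 and 92.4 CPM under the vector label, and 117, 83.9 and 113 CPM under the Hmga2 label, where replicate 2 lay below and the other 2 above every vector library. The log2 fold change of 0.10 had an interval from -0.21 to 0.41. It was 0.23 without Hmga2 replicate 2 and turned negative, to -0.13, once Y-linked RNA was a covariate, a value that again rests largely on Hmga2 replicate 2.

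The breakdown genes were the least abundant of the 10 in CPM, and their groups overlapped too. Sat1 (chromosome X, 155213132 to 155216449, minus strand), which encodes the acetyltransferase that starts the return path, was at 48.1, 53.2 and 50.8 CPM under the vector label, and 43.9, 46.7 and 51.7 CPM under the Hmga2 label. Its log2 fold change was -0.10, with an interval from -0.32 to 0.13. Hmga2 replicates 1 and 2 were below the vector range and replicate 3 was inside it.

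Smox (chromosome 2, 131491496 to 131525922, plus strand), spermine oxidase, was at 14.8, 13.2 and 16.1 CPM under the vector label, and 13.5, 15.4 and 18.7 CPM under the Hmga2 label. With 343 to 642 reads per library, counting error reached 5.40% here, and the log2 fold change of 0.11 had an interval from -0.28 to 0.51. Paox (chromosome 7, 140115799 to 140137224, plus strand), the oxidase of acetylated polyamines, was at 20.1, 26.5 and 32.7 CPM, then 24.9, 21.0 and 26.5 CPM. It had the widest spread among vector libraries of the 10 genes, a coefficient of variation of 23.8%, and vector replicates 1 and 3 were its lowest and highest values. Its log2 fold change of -0.13 had an interval from -0.58 to 0.32.

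**Figure D2:**
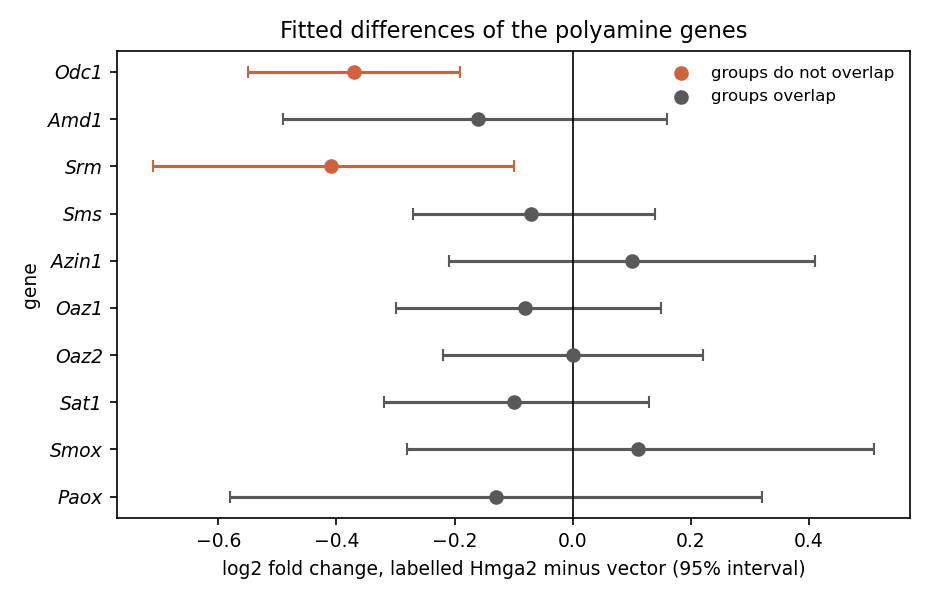
Fitted log2 fold change of each polyamine gene (labelled Hmga2 minus vector, points) with its 95% interval (bars). Odc1 at -0.37 and Srm at -0.41 lie apart from 0, and the intervals of the other 8 genes include 0.

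Over the 10 genes, log2 fold changes were negative for 7 and positive for 3 (median -0.09; 8 negative with RLE scaling, where Oaz2 is also below 0), beside 49.6% negative and a median of 0.00 over the 16739 tested genes. Groups were separate for 2 of the 10, both lower, beside 5.88% of all tested genes in that direction and 11.2% in either. With 1 library left out, the number of negative genes ranged from 6 to 8, and since the list was made with this contrast in view, these counts describe the list and carry no further weight.

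A single library held many of the lowest values. Replicate 2 labelled Hmga2 was the lowest of the 6 libraries for 5 of the 10 genes, namely Odc1, Amd1, Srm, Sms and Azin1, and so for all 4 synthesis genes. The same library had the highest Oaz2. Vector replicate 3 was the highest for 4 genes, Odc1, Srm, Oaz1 and Paox. Without Hmga2 replicate 2 the log2 fold change was -0.33 for Odc1 and -0.35 for Srm, against -0.03 for Amd1 and 0.00 for Sms.

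Ratios of counts within a library do not depend on how libraries are scaled. The ratio of Odc1 to Oaz1, the enzyme over its main antizyme, was 0.545, 0.488 and 0.472 in the vector libraries and 0.424, 0.363 and 0.443 in the libraries labelled Hmga2. The ratio of Odc1 to Azin1 was 2.84, 2.73 and 3.17 and then 1.89, 2.49 and 2.05. Both ratios were lower in each library labelled Hmga2 than in each vector library. Odc1 and Srm were chosen for being lower under this label, so ratios of either to another gene describe that choice and carry no test. The ratio of Odc1 to Sat1, synthesis over acetylation, was 6.00, 5.13 and 5.77 and then 5.04, 4.46 and 4.49, separated by a narrower gap.

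Within the synthesis chain, Srm was lower relative to Sms but not relative to Odc1. The ratio of Srm to Sms was 2.55, 3.07 and 3.26 in the vector libraries and 2.22, 2.40 and 2.42 in the libraries labelled Hmga2, without overlap. Odc1 to Srm, in contrast, was 1.05 ± 0.191 and 1.06 ± 0.027 (SD, n = 3 each). Vector replicate 1 had the highest of these, 1.27, as its Srm was low and its Odc1 was not. The ratio of Smox to Paox overlapped, at 0.574 ± 0.138 and 0.660 ± 0.104, as did that of Oaz1 to Oaz2, at 10.2 ± 0.98 and 9.69 ± 0.255. So did the ratio of Oaz1 to Azin1, at 5.84 ± 0.78 and 5.31 ± 1.34.

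**Figure D3:**
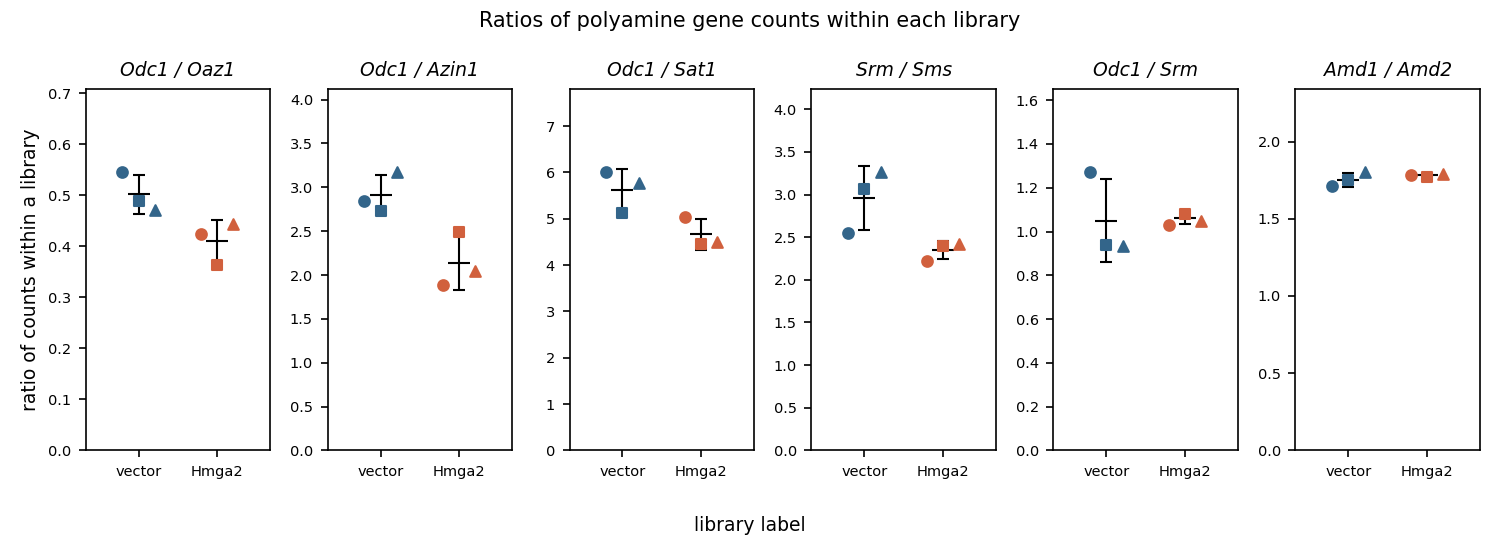
Ratio of the counts of paired genes within each library, on axes from 0, with replicates as symbols (circle, square and triangle for 1, 2 and 3) and the mean ± SD of 3 libraries as bars. The ratios of Odc1 to Oaz1, Azin1 and Sat1 and of Srm to Sms are lower under the Hmga2 label without overlap. Odc1 and Srm were chosen for being lower, so these ratios carry no test. Those of Odc1 to Srm and of Amd1 to Amd2 overlap.

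To compare levels between genes, CPM were divided by the union of annotated exons in kilobases. On this scale Oaz1 stood highest in the vector libraries, at 223 ± 18 CPM per kilobase, followed by Srm at 174 ± 27.8 and Odc1 at 83.7 ± 3.11 (SD, n = 3). In the libraries labelled Hmga2 the same 3 were at 211 ± 11.7, 131 ± 9.34 and 64.8 ± 3.38 CPM per kilobase. Amd1 came next, at 39.0 ± 3.21 and 34.7 ± 6.04. Oaz2, Sat1, Azin1 and Sms followed at 15.5 to 18.6 CPM per kilobase in the vector libraries and 14.9 to 18.7 under the Hmga2 label; neighbours among these 4 differed by no more than their spread in at least 1 group. Paox, at 5.39 ± 1.28, and Smox, at 3.78 ± 0.373, stood lowest in the vector libraries. With the longest transcript as the divisor, the first 4 places were the same, while Sat1 moved above Oaz2, Sms above Azin1 and Smox above Paox.

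Other cell types and libraries that stand apart moved with the labels in part. Of 10 granulocyte markers 10 had a negative log2 fold change, and their summed level was 4380, 9310 and 4990 CPM under the vector label and 4850, 2980 and 4110 CPM under the Hmga2 label. The sums overlapped and rest largely on Mpo, but 7 of the 10 markers were lower without overlap, beside 5.88% of all tested genes. Among these, Ms4a3 was at 213 ± 67.1 and 104 ± 23.8 CPM, Ngp at 3.32 ± 2.29 and 0.443 ± 0.302 CPM and Ltf at 2.28 ± 0.186 and 0.254 ± 0.316 CPM (SD, n = 3 each). Some of the 7 passed the filter only through the vector libraries, where they were high, so the count overstates the separation. Ltf fell to 2 reads and Ngp to 7 in a library labelled Hmga2. Of 10 erythroid markers 7 were negative, 3 of them without overlap, beside 5.88% of all tested genes. Their sums were 1430 to 1790 and 1000 to 1500 CPM. B and plasma cell markers, 9 of 10 negative, summed to 13800, 809 and 11800 CPM and to 850, 4580 and 630 CPM. Of these 10, 1 was lower without overlap, beside 5.88% of all tested genes. Neural markers, 4 of 4 that passed the filter negative, summed to 119 to 377 and 111 to 144 CPM, mostly Mbp. Of the 4, 2 were lower without overlap, beside 5.88% of all tested genes. Gfap, 1 of these 2, was at 8.31 ± 4.06 and 1.18 ± 0.42 CPM. Mast cell and basophil markers summed to 507 to 614 and 456 to 781 CPM, with 2 of 6 negative. Macrophage markers summed to 88.2 to 208 and 79.6 to 239 CPM, with 4 of 6 negative. Stroma markers summed to 58.4 to 76.4 and 56.7 to 79.8 CPM, mostly Pdgfrb, with 3 of 6 negative. Without overlap, 1 of the 6, Sparc, was lower, at 9.01 ± 4.3 and 2.01 ± 0.803 CPM, beside 5.88% of all tested genes. Cxcl12, at 0.602 ± 0.39 and 3.22 ± 0.959 CPM, and Col1a1, at 0.475 ± 0.148 and 1.32 ± 0.582 CPM, were higher without overlap, beside 5.28%. Cxcl12 fell to 7 reads in a vector library and passed the filter only through the libraries labelled Hmga2, where it was high. T cell markers summed to at most 1.58 CPM, and 0 of 6 passed the filter. No listed marker was at 0 in all 6 libraries, and the part of these cells in the levels of the polyamine genes was not tested. In bulk RNA, fewer cells of a type and less RNA per cell cannot be told apart.

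Values within libraries alike in plasma cell RNA or in Y-linked RNA describe genes already chosen for being lower, with 1 library in at least 1 arm, and so carry no test. Where Igha exceeded 1000 CPM, Odc1 averaged 291 CPM in vector replicates 1 and 3 and was 209 CPM in Hmga2 replicate 2; where it did not, Odc1 was 273 CPM in vector replicate 2 and averaged 227 CPM in Hmga2 replicates 1 and 3. Srm was at 271 and 192 CPM in the first comparison and at 291 and 218 CPM in the second. Azin1 changed direction between them, with log2 ratios of -0.21 and 0.21. Y-linked genes summed to 192 and 127 CPM in Hmga2 replicates 1 and 3 and to 5.27 to 21.5 CPM in the other 4 libraries. Xist was at 29.2 and 166 CPM in the former and at 467 to 638 CPM in the latter. Cell sex, which the sample titles do not give, cannot be fully told apart from the label, and Sms and Sat1 lie on the X chromosome. Among the other 4 libraries Odc1 averaged 285 CPM under the vector label and was 209 CPM in Hmga2 replicate 2. Summed genes of the cell cycle overlapped, at 3070 to 3450 CPM under the vector label and 3240 to 3520 CPM under the Hmga2 label. Of the 10, 7 were negative, at log2 fold changes from -0.09 to -0.01, and 0 were lower without overlap, beside 5.88% of all tested genes. Mki67 was higher without overlap, at 528 ± 17.8 and 608 ± 54.4 CPM, 1 of 10 beside 5.28% of all tested genes.

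The pathway around these genes was followed in 48 further genes, of which 38 passed the filter. Of these, edgeR's quasi-likelihood test called 0 in either direction at an adjusted p under 0.05, beside 0% of all tested genes, with adjusted p-values from 0.855 to 0.999. At an unadjusted p under 0.05 in edgeR, 2 were lower, beside 3.36% of all tested genes, and 0 higher, beside 2.23%, together 5.59%. DESeq2 called 1 lower, Gpc1, beside 0.286% of the genes it tested in that direction and 0.324% in either. The log2 fold change was negative for 22 and positive for 16, with a median of -0.05. The groups did not overlap for 5 genes that were lower, beside 5.88% of all tested genes, and for 1 that was higher, beside 5.28%.

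Genes of hypusination, the use of spermidine to modify eIF5A, were 3 of 4 negative, with a median of -0.22. Eif5a, the modified factor, was at 1510, 1650 and 1840 CPM under the vector label, and 1350, 1420 and 1500 CPM under the Hmga2 label. These groups met at their edges without overlapping, and the log2 fold change of -0.23 (standard error 0.11) did not pass (edgeR adjusted p = 0.855). Dhps, which attaches the aminobutyl group, was at 30.7 ± 4.77 and 26.5 ± 2.31 CPM, and Dohh, which completes hypusine by hydroxylation, at 64.9 ± 7.79 and 53.9 ± 5.59 CPM (SD, n = 3 each). For both, edgeR gave an adjusted p of 0.855.

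Of 7 measured transport genes 3 were negative and 4 positive, or 2 and 5 when scaled to library totals. Slc3a2, the shared heavy chain of several amino acid exchangers that has also been linked to polyamine export, was at 199, 185 and 196 CPM under the vector label, and 145, 154 and 164 CPM under the Hmga2 label. Its groups did not overlap, and its log2 fold change was -0.33 (standard error 0.08), but it did not pass over all genes (edgeR adjusted p = 0.855; DESeq2 adjusted p = 0.14). Atp13a2, which exports polyamines from lysosomes, was at 244, 239 and 232 CPM, then 255, 269 and 275 CPM, higher in each library labelled Hmga2 (log2 fold change 0.16, standard error 0.07, edgeR adjusted p = 0.855). Slc22a3, an organic cation transporter, was at 144 ± 44.6 and 199 ± 39.6 CPM with overlapping groups.

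Gpc1, singled out after its values were seen, encodes glypican-1, a heparan sulfate proteoglycan linked to polyamine uptake. It was at 29.1, 39.2 and 31.2 CPM under the vector label, and 20.9, 14.5 and 19.4 CPM under the Hmga2 label, lower in 3 of 3. The log2 fold change of -0.86 (standard error 0.18) passed in DESeq2 (adjusted p = 0.0036) and not in edgeR (adjusted p = 0.855). Replicate 2 labelled Hmga2, the lowest library for the synthesis genes, was also the lowest for Gpc1.

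All 7 measured genes of arginine and ornithine supply were negative, beside 49.6% of all tested genes, with a median of -0.09, and 1 of them was lower without overlap, beside 5.88% of all. Without vector replicate 2 Oat was at 0.03, and without vector replicate 3 Ass1 was at 0.15. The gene without overlap, Aldh18a1, which encodes the enzyme that opens the route from glutamate to ornithine, was at 149 ± 12.1 and 131 ± 7.73 CPM (SD, n = 3 each; edgeR adjusted p = 0.855). Ass1, of arginine synthesis, was at 123 ± 31.9 and 119 ± 18.6 CPM, and Oat, which interconverts ornithine and glutamate semialdehyde, at 114 ± 14.2 and 108 ± 18 CPM. Of 8 genes of methionine use and of salvage of methylthioadenosine, the by-product of spermidine and spermine synthesis, 6 were negative, with a median of -0.07 (5 with library totals and 7 with RLE scaling). Mat2a, which makes S-adenosylmethionine, was level at 305 ± 9.74 and 306 ± 26 CPM, its regulatory partner Mat2b was at 82.6 ± 4.19 and 83.9 ± 8.78 CPM, and Ahcy, the hydrolase of S-adenosylhomocysteine, was at 198 ± 14.1 and 180 ± 3.17 CPM.

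Myc encodes the factor whose known targets include Odc1 and Srm, and its groups overlapped. Myc was at 374, 535 and 542 CPM under the vector label, and 583, 422 and 463 CPM under the Hmga2 label, with a log2 fold change of 0.02 and an interval from -0.41 to 0.44 (edgeR adjusted p = 0.994). With a term for immunoglobulin-rich libraries or for Y-linked genes it was -0.08 and -0.16, the latter resting largely on Hmga2 replicate 2. Of the 10 genes of the Myc network 9 were positive and 1, Max, was negative, and 0 had groups without overlap. Max, the partner of Myc, was at 124 ± 10.1 and 116 ± 3.69 CPM, and Mxd4, which competes with Myc for Max, at 87.3 ± 4.41 and 101 ± 15.6 CPM.

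**Figure D4:**
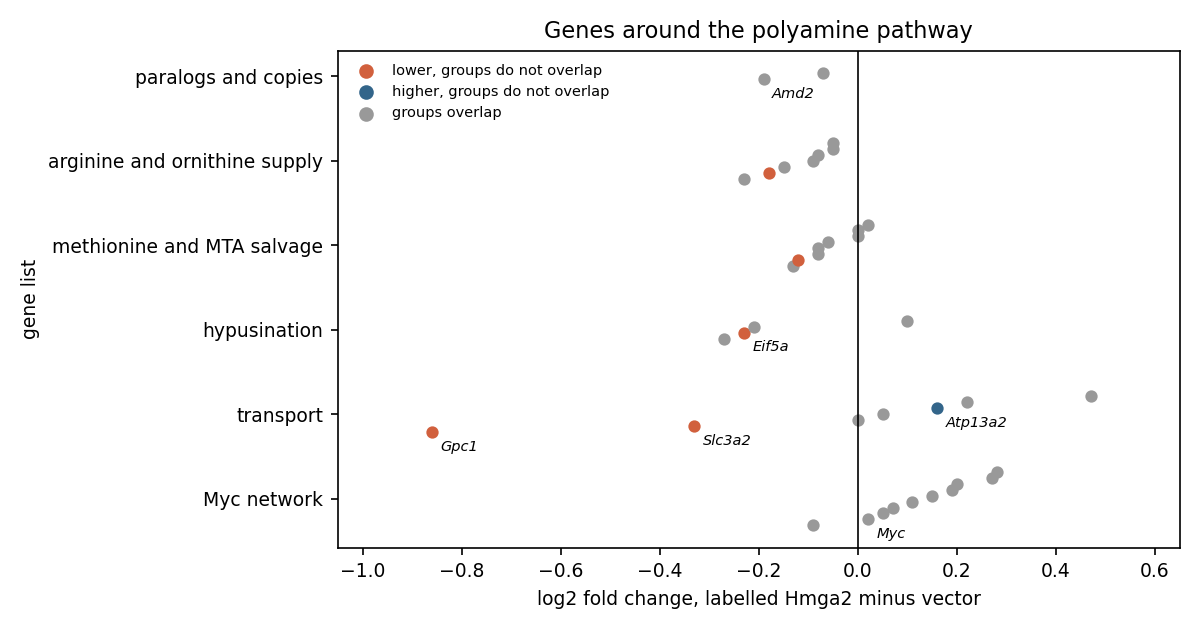
Log2 fold change (labelled Hmga2 minus vector) of the 38 measured genes around the polyamine pathway, 1 point a gene, grouped by list; colours mark groups without overlap. Gpc1 at -0.86 and Slc3a2 at -0.33 stand lowest, and Myc lies at 0.02.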

How the data were processed

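Each library's deposited table held expected counts per gene symbol, a unit read from the values: 67.3% to 70.1% of those above 0 were whole within 1e-06, and library totals differed. The submitters' processing notes name Partek 3.0, Bowtie2 and mm10; counter, annotation and strandedness: not given in the sources used here. Expected counts split reads between near-identical copies by a model, which makes Amd1, Amd2, Oaz1 and their pseudogenes uncertain.

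Counts were rounded and fitted over the whole table with edgeR 4.0.16 in R 4.3.3 (filterByExpr, TMM, quasi-likelihood F test on group, Benjamini-Hochberg adjustment, threshold 0.05), after the steps had been tested on simulated data. CPM were TMM-scaled; standard errors and intervals come from the F statistic. At these depths 3 reads correspond to 0.0846 to 0.121 CPM, counting error only. DESeq2 1.42.0, a replicate block, each library left out, other scalings and covariates were alternatives. Positions and lengths come from GENCODE M21.

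The 10 genes and all lists were chosen with earlier results of these data known. Besides the 10 genes, Hmga2, sequence copies and single markers, the 3 genes with the highest mean CPM are named in each pathway list (the rule allowed 4). Gpc1, Gatm and the genes at or near 0 reads fall outside that rule, as do Meis1 and the named granulocyte, neural, stroma and cell cycle markers. Their values were known when they were picked. No replicate pair was a duplicate library: chi-square over its degrees of freedom was 24.8 to 57 between libraries of a group.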

Additional observations from a re-analysis of the deposited data

How the results depend on the processing

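Over the alternatives run, the log2 fold change lay between -0.41 and -0.33 for Odc1 and between -0.53 and -0.30 for Srm. The median of the 10 genes lay between -0.15 and -0.02, and each moved by less than the spread between replicates. Odc1 and Srm were chosen for being lower in these same libraries, so their ranges are descriptions and carry no test. With a term for Y-linked genes Amd1 moved to -0.41, Sms to -0.17, Oaz2 to 0.11 and Azin1 to -0.13, the opposite sign of its value without it. Hmga2 replicate 2, at 5.27 CPM, was the only library of its label low in Y-linked RNA, as all vector libraries were. Values with this term therefore rest largely on that 1 library and cannot be read as differences freed of cell sex. With each library left out, 6 to 8 of the 10 genes were negative, and Paox ranged from -0.29 to 0.06, Smox from -0.02 to 0.22 and Oaz2 from -0.07 to 0.04. The genes called over the whole table numbered 0 with edgeR, 1 without the count filter, 1 with the term for Y-linked genes and 67 with DESeq2. Those of the pathway around the polyamine genes numbered 0 and, with DESeq2, 1 (Gpc1, log2 fold change -0.86). With each library left out both edgeR counts were 0, as with all libraries, and DESeq2 was not run in that way. Log2 fold changes near 0 changed sign: Mat2a to 0.00 with the replicate block or with RLE size factors, to -0.01 with the term for immunoglobulin-rich libraries or with immunoglobulin genes left out and to -0.06 with that for Y-linked genes; Mat2b to 0.00 and -0.02 and Myc to -0.08 and -0.16 with the same 2 terms; and Azin2 to 0.03 with the first. With each library left out, Mat2a ranged from -0.07 to 0.05, Mat2b from -0.06 to 0.09, Myc from -0.14 to 0.11, Azin2 from -0.25 to 0.10, Oat from -0.22 to 0.03 and Ass1 from -0.23 to 0.15. The replicate block called 0 genes and gave -0.37 for Odc1 and -0.40 for Srm; same-numbered libraries did not deviate together (correlations of -0.21, -0.50 and -0.26), so the numbers were not taken as pairs. With 3 libraries a group, the 95% interval of Smox still leaves room for a ratio from 0.823 to 1.42.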

Other observations

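Apart from Amd2, the listed relatives of the polyamine genes were at low levels in these LSK libraries. Azin2, a second antizyme inhibitor, averaged 1.77 ± 0.438 CPM under the vector label and 1.69 ± 0.131 CPM under the Hmga2 label (SD, n = 3 each). Oaz3, the antizyme of the testis, was at 0.0606 to 0.332 CPM, from 2 to 11 reads a library, and Sat2 had at most 4 reads in a library. Satl1 had 0 reads in each library, which allows a level of up to 0.0846 to 0.121 CPM. The genes of arginase and agmatinase were at the same low level. Arg1, liver-type arginase, had 1 to 13 reads a library, Arg2 0 to 4 and Agmat 0 to 4, and Otc, of the urea cycle, had 0. Gatm, on the same list of arginine and ornithine supply, was not low. It was at 71.8 ± 11.1 CPM under the vector label and 61.2 ± 16.5 CPM under the Hmga2 label. Slc22a2, an organic cation transporter, had 0 reads in each library, while Slc22a3 had 3187 to 7296.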
